A study of Mus musculus with 10 samples.

Results

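Collagen genes are described here across 10 RNA sequencing libraries of mouse pancreatic tumours. The members are all genes whose symbol follows the pattern Col, number, a, number, which holds for 44 of the 23924 usable gene symbols in each of the 2 tables. They were grouped by protein family into 11 fibrillar collagens, 6 basement membrane (type IV) chains, 9 collagens associated with fibrils (FACIT) and 18 others, among them 6 type VI chains. KrasT and MycT are the names the labels give to the 2 tumour models, which grew in the pancreas of athymic nude mice, hosts that lack a thymus and so most T cells. The groups were KrasT with doxycycline (3 libraries), KrasT without it (3), MycT with doxycycline (2) and MycT without it (2). Hosts of the doxycycline groups drank water with doxycycline at 100 ug/ml and 2.5% sucrose for 2 weeks (14 days), and the other groups are labelled with 0 days. Doxycycline turns tetracycline-responsive transgenes on or off, and the study's title speaks of tumour cells that lie dormant once their oncogenic driver is absent. How the transgenes work is not in the labels, which name no sucrose for the untreated hosts, so effects of the drug or the sugar cannot be told apart from those of a transgene. Whole frozen tissue was extracted, and in such bulk samples fewer cells of a type and less RNA per cell cannot be told apart.

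Collagens are secreted proteins whose chains wind into a rope-like helix and then assemble outside the cell. Fibrillar collagens build the cross-banded fibres that give tissue its tensile strength, FACIT collagens coat the surface of those fibres, type VI collagen forms beaded filaments close to cells, and type IV collagen forms the flat mesh of basement membranes. In pancreatic tumours, fibroblasts are known as the main makers of fibrillar collagen, while epithelial and endothelial cells also lay down basement membrane.

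Values are FPKM, fragment numbers normalised to transcript length and sequencing depth, so levels of different collagens can be set beside each other. Within each group values are given in the order of the replicate numbers. For untreated MycT, replicate 2 stands first and a library without a number second, because its column carries an animal number that is in none of the labels. No column carries the animal number of untreated MycT replicate 1, and whether the library without a number is that tumour is not known. The total FPKM of a library ran from 513949 to 569272 in the doxycycline groups and from 789672 to 1517332 in the untreated groups. Rn45s, the ribosomal RNA precursor, stood at 17238 FPKM in KrasT doxycycline replicate 1 and at 20880 FPKM in MycT doxycycline replicate 2, against 546 to 2231 in the other 8 libraries. The epithelial keratins Krt8 and Krt18, which mark pancreatic duct and carcinoma cells, were present in every library, at 84.2 FPKM or more. Read totals are not in the tables, so the counting precision behind each FPKM is unknown.

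**Figure D1:**
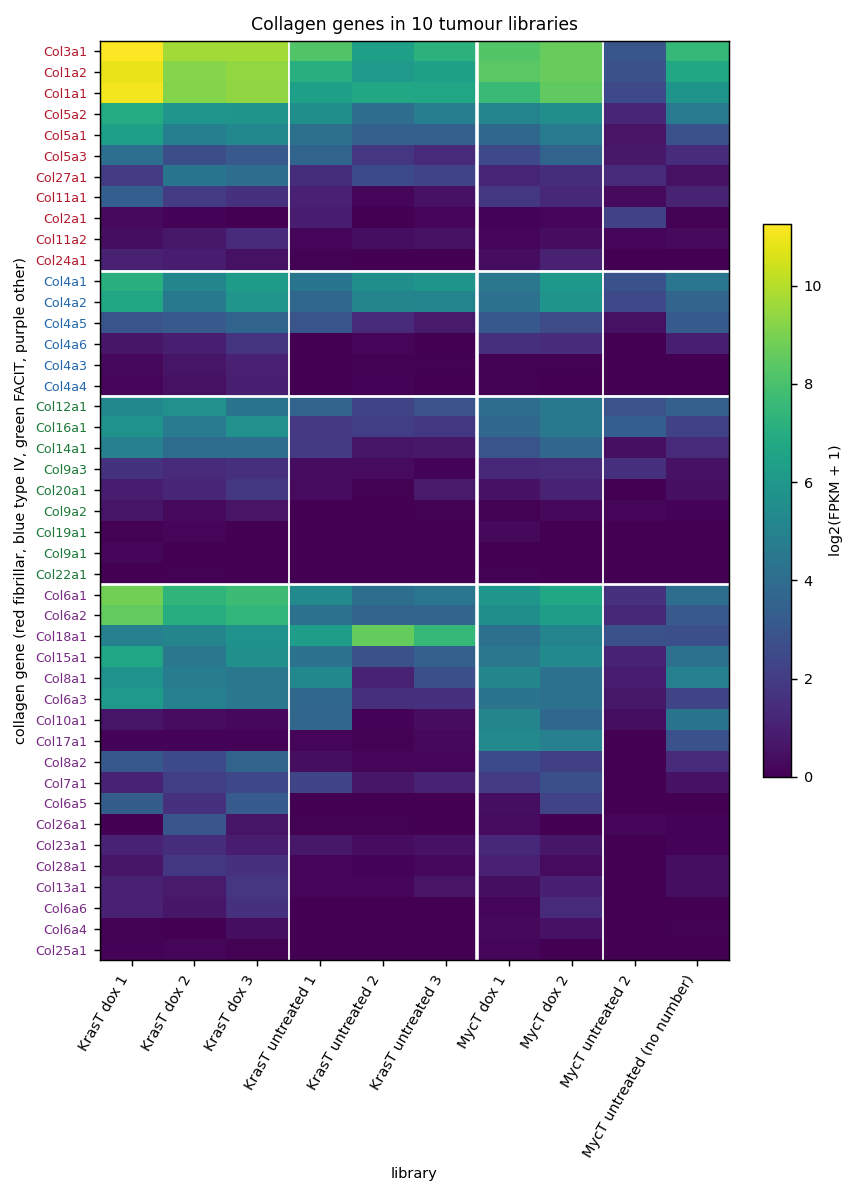
Level of each of the 44 collagen genes, as log2(FPKM + 1), in each of the 10 libraries, with rows grouped by family and columns by group, doxycycline left of untreated within each model. Col3a1, Col1a2 and Col1a1 are brightest in the 3 KrasT doxycycline libraries, and MycT untreated replicate 2 is dark in most rows. Col18a1 is brighter in all 3 untreated KrasT libraries than in any KrasT doxycycline library.

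Summed over the 44 genes, collagen made up 8122, 2709 and 3112 FPKM in KrasT doxycycline libraries, against 861, 796 and 708 FPKM in untreated KrasT libraries. In MycT the sums were 1244 and 1776 FPKM with doxycycline, against 67.6 and 540.3 FPKM without. The groups did not overlap in either model. KrasT doxycycline replicate 1, 1 of the 2 libraries rich in Rn45s, had the highest sum of all, and MycT untreated replicate 2 had the lowest. Of the 44 genes, 7 stayed under 1 FPKM in every library (Col4a4, Col6a4, Col9a1, Col9a2, Col19a1, Col22a1 and Col25a1).

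The first comparison asks which collagens differed between doxycycline and untreated KrasT tumours. Genes were tested where at least 3 KrasT libraries reached 1 FPKM, which held for 24 collagens, and called at a limma adjusted p under 0.05. Of these 24, 13 rose and 1 fell, while over all 12696 tested genes 16.7% were called, 8.46% higher and 8.25% lower. The median log2 change was 2.02 over the tested collagens and -0.10 over all tested genes. Every log2 change given is on the log2(FPKM + 1) scale and is too small for genes of low level. Col6a5, Col8a2 and Col9a3 reached 1 FPKM in doxycycline libraries only, so they could be tested only because they differed. Among the other 21, 10 rose and 1 fell.

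Without overlap between the groups, doxycycline libraries stood above untreated ones for 16 of the 24 tested collagens, where 16.8% of all tested genes did so, and below them for 1, where 23% of all genes did so. The 16 include Col6a5, Col8a2 and Col9a3, for which the filter on low values fixed this outcome. Of the 20 collagens too low to test, 13 were higher in all 3 doxycycline libraries and 7 overlapped, at levels of 12.2 FPKM or less. Of all genes too low to test but above 0 in at least 1 KrasT library, 25.5% were higher in all 3. The calls depended on single libraries. Without doxycycline replicate 3 only Col16a1, Col6a2 and Col8a2 were called, without untreated replicate 2 these 3 and Col14a1, and without untreated replicate 3 only Col16a1. Without doxycycline replicate 1 there were 10 calls, among which Col12a1, Col18a1, Col3a1, Col5a1 and Col6a3 were missing, and without doxycycline replicate 2 there were 12, with Col12a1, Col18a1 and Col6a3 missing. Without untreated replicate 1 there were 20, all 14 included. In each of these 6 fits all 14 genes kept the sign of their change.

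Type I and type III collagen held the highest levels. Col1a1, 1 of the 2 chains of type I collagen, the main fibre of tendon, bone and scar, had 2124, 572 and 674 FPKM in KrasT doxycycline libraries, against 79.8, 106 and 99.9 FPKM in untreated ones. Col1a2, its partner chain, had 1860.5, 598 and 693 FPKM with doxycycline, against 130.4, 65.1 and 86.5 FPKM without. Col3a1, the chain of type III collagen of vessel walls and soft tissue, had 2437, 836 and 828 FPKM with doxycycline, against 295, 81.7 and 147 FPKM without. All 3 genes were highest in doxycycline replicate 1, and no doxycycline library came near the untreated range. The log2 change was 3.29 ± 0.50 (SE) for Col1a1 (limma adjusted p = 0.0134), 3.33 ± 0.49 for Col1a2 (limma adjusted p = 0.0122) and 2.96 ± 0.60 for Col3a1 (limma adjusted p = 0.0241). Col3a1 missed the threshold when both tables were fitted together (limma adjusted p = 0.0746), as did Col5a1, described next (0.0707). The ratio of Col1a1 to Col1a2 FPKM lay between 0.543 and 1.63 in all 10 libraries.

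The promoters of Col1a2 and Col3a1 are shown because these genes rose together to the highest levels while their start regions share none of the 3 motifs searched. Each window runs from 250 bases before to 50 bases after the annotated start, 5′ to 3′ on the gene's strand, from RefSeq on GRCm38.p6, at chr6:4505368-4505667 (plus strand) for Col1a2 and at chr1:45311288-45311587 (plus strand) for Col3a1. Capitals mark CCAAT (or ATTGG on the other strand), GGGCGG (or CCGCCC) and TATAAA (or TTTATA).
Col1a2: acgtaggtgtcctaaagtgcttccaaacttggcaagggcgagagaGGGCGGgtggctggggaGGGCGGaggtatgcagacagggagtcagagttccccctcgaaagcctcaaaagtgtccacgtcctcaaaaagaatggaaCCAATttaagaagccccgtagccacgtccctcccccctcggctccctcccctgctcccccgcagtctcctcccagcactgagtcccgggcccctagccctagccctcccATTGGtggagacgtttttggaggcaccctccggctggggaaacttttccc
Col3a1: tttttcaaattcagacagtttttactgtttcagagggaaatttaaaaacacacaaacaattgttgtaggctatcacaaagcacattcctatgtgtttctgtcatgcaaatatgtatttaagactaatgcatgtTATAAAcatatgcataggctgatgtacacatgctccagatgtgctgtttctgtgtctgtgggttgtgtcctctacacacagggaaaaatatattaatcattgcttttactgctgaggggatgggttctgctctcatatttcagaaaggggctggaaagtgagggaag
The Col1a2 window holds 2 CCAAT and 2 GGGCGG matches, and the Col3a1 window 1 TATAAA match. Across 38 windows of the 35 collagen genes with a match in the table, 34.2% held CCAAT, 60.5% GGGCGG and 13.2% TATAAA, against 37.4%, 35.7% and 13.6% of all 32851 windows. These are matches of letters and not known binding sites.

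Type V collagen is thought to seed the fibrils of type I. Its chain Col5a1 had 81.3, 27.6 and 36.7 FPKM in KrasT doxycycline libraries, against 16.8, 9.88 and 10.1 FPKM in untreated ones. The groups did not overlap, and Col5a1 rose by 1.79 ± 0.44 (SE, limma adjusted p = 0.03796). The partner chains Col5a2 and Col5a3 had log2 changes of 1.41 and 1.06 and were not called (limma adjusted p = 0.0905 and 0.309). Untreated replicate 1 was the highest untreated library for both, at 47.2 FPKM of Col5a2 and 11.5 FPKM of Col5a3. Col11a1, a chain of type XI collagen, better known from cartilage, had 9.13, 2.86 and 2.01 FPKM with doxycycline, against 1.06, 0.128 and 0.4598 FPKM without (limma adjusted p = 0.0592). Col27a1 was not called either, at 2.97, 19.5 and 15.5 FPKM, against 1.76, 4.799 and 3.87 FPKM. In all, 4 of the 8 tested fibrillar genes rose and 0 fell, with 6 of the 8 at an unadjusted limma p under 0.05, a level that 34% of all tested genes reached.

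**Figure D2:**
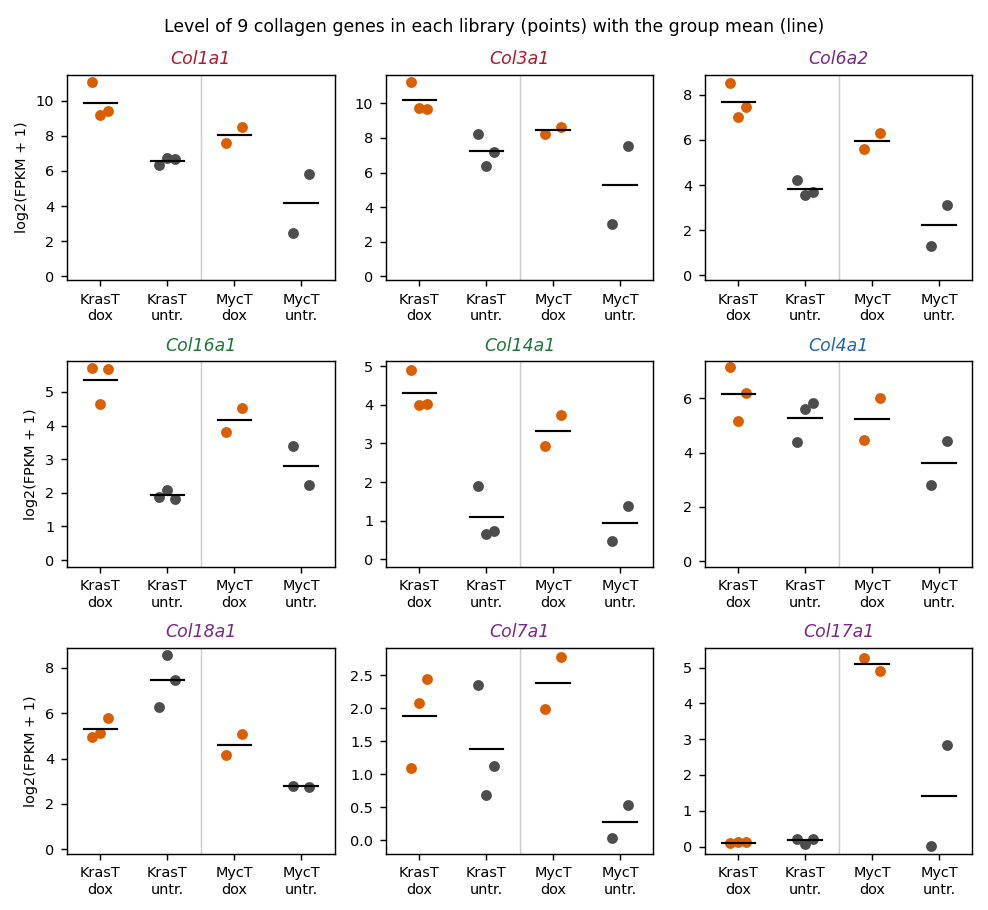
Level of 9 collagen genes, as log2(FPKM + 1), in each library (points) with the group mean (line), doxycycline left of untreated within each model, each panel with its own axis from 0. Col1a1, Col3a1, Col6a2, Col16a1 and Col14a1 are higher with doxycycline in both models without overlap, Col18a1 is lower with doxycycline in KrasT and higher in MycT, and Col17a1 is near 0 in KrasT.

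All 4 tested type VI genes rose, but 1 of them, Col6a5, could be tested only because it differed. Col6a1 had 460.2, 165 and 210.3 FPKM in KrasT doxycycline libraries, against 39.8, 15.8 and 20.6 FPKM in untreated ones, a log2 change of 3.37 ± 0.49 (SE, limma adjusted p = 0.0118). Col6a2, its obligatory partner, had 369, 127 and 173 FPKM with doxycycline, against 17.7, 10.98 and 11.9 FPKM without, and had a log2 change of 3.83 ± 0.43 (SE, limma adjusted p = 0.00661). This was the largest of the 24 tested collagens with the pseudocount of 1, while with a pseudocount of 0.1 Col6a5, Col8a2 and Col14a1 were larger, at 5.59, 4.76 and 4.07 against 3.92 for Col6a2. Col6a3, the long chain of the standard trimer, had 64.8, 29.4 and 21.7 FPKM with doxycycline, against 12.3, 1.85 and 2.07 FPKM without, with a log2 change of 2.87 ± 0.69 (SE, limma adjusted p = 0.0357). The lowest doxycycline library exceeded the highest untreated library for all 3 chains. Col6a5, an alternative to the long chain, had 8.904, 2.04 and 8.39 FPKM with doxycycline and no more than 0.0230 FPKM in any untreated KrasT library, and rose by 2.69 ± 0.47 (SE, limma adjusted p = 0.0173). With no filter on low values Col6a3 and Col5a1 missed the threshold, at limma adjusted p values of 0.0567 and 0.0555. Col6a4 and Col6a6 were too low to test in either model.

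All 4 tested FACIT genes rose, but 1 of them, Col9a3, could be tested only because it differed. Col16a1, a minor collagen at fibril surfaces and near basement membranes, had 51.5, 24.2 and 50.1 FPKM in KrasT doxycycline libraries, against 2.64, 3.24 and 2.55 FPKM in untreated ones. Its log2 change was 3.42 ± 0.35 (SE, limma adjusted p = 0.00527), and it was called in all 14 other settings, the 6 fits without 1 library included. Doxycycline replicates 1 and 3 were nearly level, and every untreated library was far below replicate 2. Col14a1, undulin, had 29.04, 14.9 and 15.2 FPKM with doxycycline, against 2.74, 0.568 and 0.6505 FPKM without, a log2 change of 3.21 ± 0.45 (SE, limma adjusted p = 0.0107). Col12a1, a collagen of dense connective tissue, had 36.8, 51.03 and 18.9 FPKM with doxycycline, against 11.8, 4.004 and 6.46 FPKM without, a log2 change of 2.12 ± 0.48 (SE, limma adjusted p = 0.0311). In Col12a1 doxycycline replicate 2 was the highest library, unlike in Col1a1, Col1a2 and Col3a1. Col9a3, a chain of a cartilage collagen, rose by 1.24 ± 0.22 (SE, limma adjusted p = 0.0175) at 2.14, 1.53 and 1.86 FPKM, against 0.277, 0.262 and 0.0764 FPKM, and lost its call under quantile normalization (limma adjusted p = 0.198). The other 5 FACIT genes were too low to test.

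Of the 6 chains of type IV collagen, the mesh of basement membranes, 3 could be tested in KrasT, and the groups overlapped for all 3. Col4a3, Col4a4 and Col4a6, too low to test, were higher in all 3 doxycycline libraries, at 2.25 FPKM or less. Of all genes too low to test but above 0 in at least 1 KrasT library, 25.5% were higher in all 3. Col4a1 had 139.9, 34.9 and 71.6 FPKM in KrasT doxycycline libraries, against 19.8, 48.1 and 55.5 FPKM in untreated ones. Col4a2, which pairs with it in the common type IV trimer, had 105, 22.5 and 58.1 FPKM with doxycycline, against 12.6, 33.4 and 32.3 FPKM without. Doxycycline replicate 2 lay inside the untreated range for both. The log2 change was 0.89 ± 0.59 (SE) for Col4a1, with a 95% interval of -0.50 to 2.28 (limma adjusted p = 0.331), and 1.08 ± 0.62 (SE) for Col4a2, with an interval of -0.39 to 2.55 (limma adjusted p = 0.266). The third tested chain, Col4a5, had a log2 change of 1.54 (limma adjusted p = 0.104), so 0 of 3 were called, with 1 of 3 at an unadjusted limma p under 0.05. The intervals include both no change and a rise of more than 2 log2 units. The difference between type IV and other collagens was not tested.

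Col4a1 and Col4a2 lie head to head, and their values moved together. The ratio of Col4a1 to Col4a2 FPKM stayed between 1.14 and 1.73 over all 10 libraries, and that of Col6a1 to Col6a2 between 1.22 and 2.25, while that of Col5a2 to Col5a1 ran from 1.496 to 3.92 and that of Col1a1 to Col4a1 from 0.755 to 16.4. The promoter window of Col4a2, at chr8:11312555-11312854 (plus strand, GRCm38.p6, RefSeq), is shown because its last 78 bases also belong, read on the other strand, to the window of Col4a1. Capitals mark the same motifs as above, and the window holds 1 CCAAT and 3 GGGCGG matches counting both strands.
Col4a2: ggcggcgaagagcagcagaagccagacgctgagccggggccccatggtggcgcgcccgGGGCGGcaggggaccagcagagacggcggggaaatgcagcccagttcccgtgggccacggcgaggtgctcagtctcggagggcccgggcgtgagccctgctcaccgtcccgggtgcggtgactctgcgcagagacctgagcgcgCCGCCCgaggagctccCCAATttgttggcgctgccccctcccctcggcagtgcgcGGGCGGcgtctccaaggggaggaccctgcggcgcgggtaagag
The shared stretch is chr8:11312777-11312854. In the RefSeq gene order the pairs Col3a1 and Col5a2, Col4a3 and Col4a4, Col6a1 and Col6a2, and Col4a5 and Col4a6 are also neighbours.

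Among the remaining collagens, Col8a2, a chain of the short-chain network found under endothelia, rose by 2.84 ± 0.33 (SE, limma adjusted p = 0.00753). It had 7.63, 4.83 and 11.4 FPKM in KrasT doxycycline libraries, against 0.344, 0.101 and 0.147 FPKM in untreated ones. Its partner Col8a1 had 52.99, 26.3 and 21.7 FPKM with doxycycline, against 36.9, 1.15 and 5.75 FPKM without, and the 36.9 FPKM of untreated replicate 1 left the groups overlapping (limma adjusted p = 0.208). Col15a1, a collagen of basement membrane zones around vessels and muscle, had 95.6, 21.4 and 49.8 FPKM with doxycycline, against 18.7, 5.99 and 9.95 FPKM without, and was not called (log2 change 2.06 ± 0.61 SE, limma adjusted p = 0.0606). Col7a1, the anchoring fibril collagen beneath epithelia, had 1.14, 3.24 and 4.45 FPKM with doxycycline, against 4.12, 0.612 and 1.18 FPKM without (log2 change 0.49 ± 0.54 SE, limma adjusted p = 0.564).

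Col18a1 was the only collagen called lower in KrasT. It codes for a proteoglycan collagen of basement membranes whose end fragment is known as endostatin. It had 29.8, 34.2 and 53.7 FPKM in doxycycline libraries, against 76.5, 381 and 179 FPKM in untreated libraries. All 3 doxycycline libraries lay below all 3 untreated ones, and the spread was mainly in the untreated group. These values are not scaled to total FPKM, which was 513949 to 569272 with doxycycline and 789672 to 1018968 without in KrasT. Whether the separation holds on values scaled to the total was not tested. The log2 change was -2.16 ± 0.58 (SE, limma adjusted p = 0.0462). The call is close to the threshold: it held in 5 of 14 other settings and was lost with no filter (limma adjusted p = 0.0704), at a mean of at least 5 FPKM (0.0527), under median-ratio scaling (0.0583), under quantile normalization (0.111) and without any 1 of the libraries other than untreated replicate 1. The change was negative in all 14. Beside it, the epithelial markers Krt18 and Krt8 also fell, Krt18 to 84.2, 543 and 436 FPKM with doxycycline, against 1497, 6277 and 3801 FPKM without, and Krt8 to 88.2, 365 and 313 FPKM, against 680.5, 4627 and 2003 FPKM. Krt18 and Krt8 were the only 2 called of 9 epithelial markers, where 8.25% of all tested genes were called lower. The other 7 markers overlapped between the groups, and all 9 had a negative log2 change. Untreated replicates 2 and 3 were the highest libraries for Col18a1, Krt18 and Krt8. Krt8 was not called under median-ratio scaling or quantile normalization, and Krt18 was not called under quantile normalization. The part of epithelial content in the Col18a1 result was not tested.

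RefSeq lists 2 starts for Col18a1 on GRCm38.p6, both on the minus strand, and FPKM per gene does not separate them. Their windows are shown because this gene was the only collagen called lower, first chr10:77166481-77166780 and then chr10:77113656-77113955, with the same motifs in capitals.
Col18a1 upstream start: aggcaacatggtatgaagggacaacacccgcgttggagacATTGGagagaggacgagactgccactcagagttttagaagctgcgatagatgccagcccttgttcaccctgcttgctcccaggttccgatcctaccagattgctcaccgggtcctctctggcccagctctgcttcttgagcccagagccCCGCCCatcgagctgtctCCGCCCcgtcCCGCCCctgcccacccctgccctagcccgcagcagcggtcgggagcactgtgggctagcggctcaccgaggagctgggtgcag
Col18a1 downstream start: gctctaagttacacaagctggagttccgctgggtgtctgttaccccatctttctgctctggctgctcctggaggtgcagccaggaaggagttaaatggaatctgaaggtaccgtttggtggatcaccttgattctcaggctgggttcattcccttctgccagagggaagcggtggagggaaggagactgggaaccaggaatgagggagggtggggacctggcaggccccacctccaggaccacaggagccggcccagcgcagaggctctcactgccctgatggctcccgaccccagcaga
The upstream window holds 1 CCAAT and 3 GGGCGG matches and the downstream window holds 0 of the 3 motifs.

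The makeup of collagen expression differed between libraries. Fibrillar genes took 81.9%, 78.3% and 74.4% of summed collagen FPKM in KrasT doxycycline libraries, against 67.9%, 35.9% and 53.2% in untreated KrasT libraries. Col18a1 took 0.367%, 1.26% and 1.73% with doxycycline, against 8.88%, 47.9% and 25.2% without, and was the most abundant collagen in untreated replicates 2 and 3. Type VI genes took 11.1%, 11.99% and 13.3% with doxycycline, against 8.11%, 3.60% and 4.89% without. In MycT the fibrillar share was 70.6% and 69.9% with doxycycline, against 37.7% and 68.9% without. In MycT untreated replicate 2, where all collagens together came to 67.6 FPKM, FACIT genes took 27.2%, and Col16a1 was the most abundant collagen.

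**Figure D3:**
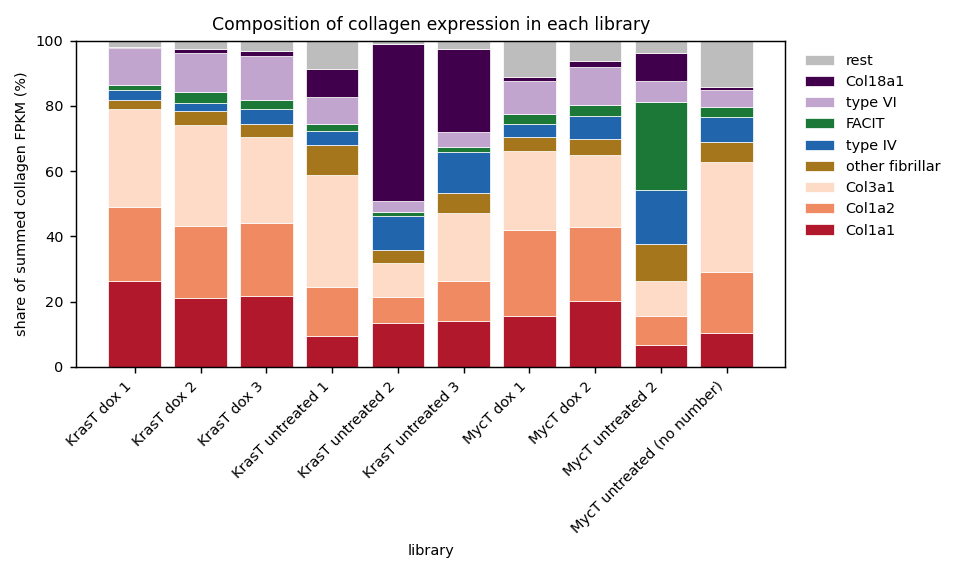
Share of summed collagen FPKM (%) taken by single genes and families in each library, doxycycline left of untreated within each model. Col1a1, Col1a2 and Col3a1 fill most of each doxycycline bar, and Col18a1 fills 47.9% and 25.2% of the bars of untreated KrasT replicates 2 and 3.

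The second comparison asks the same of MycT tumours, where 26 collagens reached 1 FPKM in at least 2 libraries. Limma called 0 of the 26, and 5 of all 12834 tested genes, which is 0.039%. At an unadjusted limma p under 0.05 there were 14 of 26, all higher, where 33.4% of all genes reached that level and 15.7% reached it higher. The log2 change was positive for all 26, with a median of 2.03, against 0.04 over all tested genes. Doxycycline libraries stood above untreated ones without overlap for 21 of 26, where 31.9% of all genes did so, while 0 stood below, where 32.8% of all genes did, and the other 5 overlapped. Of the 18 collagens too low to test, 8 were above and 10 overlapped, while 29.2% of all genes too low to test but above 0 in at least 1 MycT library were above. Col4a6 and Col7a1 reached 1 FPKM in doxycycline libraries only, so the filter on low values fixed their place among the 21.

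A joint fit of both tables, which borrows the spread of the KrasT libraries, called 9 of 23 collagens higher and 0 lower in MycT, where 20.4% of all genes were called, 8.11% higher and 12.3% lower. These were Col1a1, Col1a2, Col5a1, Col6a1, Col6a2, Col6a3, Col7a1, Col8a2 and Col14a1, and 8 of the 9, all but Col7a1, were among the 14 called in KrasT. Col7a1 reached 1 FPKM in MycT doxycycline libraries only, so it could be tested in MycT only because it differed. The joint calls also depended on single libraries. Their number was 1 without doxycycline replicate 1, 0 without doxycycline replicate 2, 1 without untreated replicate 2 and 11 without the library that has no number. The 2 untreated MycT libraries differed widely, with Col1a1, Col1a2, Col3a1 and Col5a1 all lower in replicate 2.

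In MycT, Col1a1 had 192 and 358 FPKM with doxycycline, against 4.595 and 55.3 FPKM without, a log2 change of 3.89 ± 1.16 (SE, limma adjusted p = 0.102, and 0.0256 in the joint fit). Col1a2 had 329 and 400.0 FPKM with doxycycline, against 6.03 and 102 FPKM without (limma adjusted p = 0.126, joint 0.0364). Col3a1 had 303 and 397 FPKM with doxycycline, against 7.08 and 182 FPKM without, and was called in neither fit (limma adjusted p = 0.212, joint 0.0979). Doxycycline libraries were higher for all 3 genes without overlap, and the untreated library with no number reached 181.7 FPKM of Col3a1. Col5a1 had 12.5 and 24.2 FPKM with doxycycline, against 0.531 and 6.12 FPKM without (limma adjusted p = 0.123, joint 0.0444).

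Of the type VI chains in MycT, Col6a1 had 60.1 and 106 FPKM with doxycycline, against 2.06 and 15.9 FPKM without (log2 change 3.49 ± 0.89 SE, limma adjusted p = 0.0852, joint 0.0194). Col6a2 had 47.02 and 77.2 FPKM with doxycycline, against 1.48 and 7.77 FPKM without, a log2 change of 3.71 ± 0.70 (SE, limma adjusted p = 0.0678, joint 0.00835). Of the 9 joint calls, Col6a2 was the only one that held without doxycycline replicate 1 and without untreated replicate 2. Col6a3 had 18.9 and 18.2 FPKM with doxycycline, against 0.668 and 4.12 FPKM without (limma adjusted p = 0.0752, joint 0.0468). Col6a5 was listed at 0 in both untreated MycT libraries and had 0.356 and 3.88 FPKM with doxycycline.

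For the FACIT genes in MycT, Col14a1 had 6.69 and 12.3 FPKM with doxycycline, against 0.397 and 1.62 FPKM without (log2 change 2.40 ± 0.51 SE, limma adjusted p = 0.0704, joint 0.01999). Col16a1 had 13.1 and 22.1 FPKM with doxycycline, against 9.42 and 3.66 FPKM without, a log2 change of 1.37 ± 0.54 (SE, limma adjusted p = 0.158, joint 0.0772). Untreated replicate 2, the library poorest in collagen, held more Col16a1 than the other untreated library. Col12a1 had 15.1 and 22.4 FPKM with doxycycline, against 6.41 and 10.03 FPKM without (limma adjusted p = 0.138, joint 0.179), and Col9a3 overlapped between the groups.

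The type IV chains in MycT had 21.1 and 63.1 FPKM of Col4a1 with doxycycline, against 6.08 and 20.6 FPKM without (limma adjusted p = 0.224, joint 0.19). Col4a2 had 17.1 and 55.2 FPKM with doxycycline, against 4.51 and 11.9 FPKM without (limma adjusted p = 0.148, joint 0.125). The groups did not overlap for either gene, with 21.1 FPKM against 20.6 FPKM in the nearest libraries of Col4a1 and 17.1 FPKM against 11.9 FPKM in those of Col4a2. Col18a1 had 16.6 and 33.2 FPKM with doxycycline, against 5.87 and 5.79 FPKM without, a log2 change of 1.85 ± 0.44 (SE, limma adjusted p = 0.0796, joint 0.0761).

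Epithelial anchoring collagens and the cartilage collagen Col10a1 were also detected in MycT. Col17a1, the transmembrane collagen that anchors epithelial cells through hemidesmosomes, had 37.8 and 28.9 FPKM in MycT doxycycline libraries, against 0.0128 and 6.13 FPKM in untreated ones (log2 change 3.66 ± 0.98 SE, limma adjusted p = 0.0891), and it stayed at or below 0.165 FPKM in all 6 KrasT libraries. Col7a1, whose anchoring fibrils fasten epithelial basement membrane to the tissue below, had 2.95 and 5.81 FPKM with doxycycline, against 0.0223 and 0.442 FPKM without (log2 change 2.09 ± 0.44 SE, limma adjusted p = 0.0701, joint 0.0428). As said above, Col7a1 could be tested in MycT only because it differed. Col10a1, best known from hypertrophic cartilage, had 33.5 and 13 FPKM with doxycycline, against 0.344 and 19.3 FPKM without, and overlapped between the groups (limma adjusted p = 0.347). In KrasT, Col10a1 exceeded 1 FPKM in untreated replicate 1 alone, at 12.2 FPKM. None of the 6 cartilage and bone markers, Acan, Matn1, Comp, Bglap, Ibsp and Sp7, reached 1 FPKM in enough libraries to test in either model. Their sum was 41.3 FPKM in KrasT untreated replicate 2, 9.44 FPKM in KrasT untreated replicate 3 and 2.28 FPKM or less in every other library. Col8a2 had 4.71 and 3.4 FPKM with doxycycline, against 0.0162 and 1.61 FPKM without (limma adjusted p = 0.127, joint 0.0463). Levels in the 2 models come from separate tables, and no level was tested between them.

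The third comparison asks whether the doxycycline change differed between the models, as the change in KrasT minus that in MycT. Limma called 0 of 23 collagens, and 0.24% of all 12073 genes tested in both tables. At an unadjusted limma p under 0.05 there were 2 collagens, Col18a1 and Col16a1, where 19.9% of all genes reached that level. For Col18a1 the difference was -4.01 ± 0.85 (SE) on the log2 scale, with a 95% interval of -5.94 to -2.08 (limma adjusted p = 0.0704). It passed only without KrasT untreated replicate 1 (limma adjusted p = 0.0106), among 18 other settings. For Col16a1 the difference was 2.05 ± 0.64 (SE), with an interval of 0.61 to 3.49 (limma adjusted p = 0.133). For Col1a1 it was -0.60 ± 1.26 (SE), with an interval of -3.44 to 2.25, and for Col6a2 0.11 ± 0.84, with an interval of -1.79 to 2.02, so differences of more than 1 log2 unit either way lie inside both intervals.

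**Figure D4:**
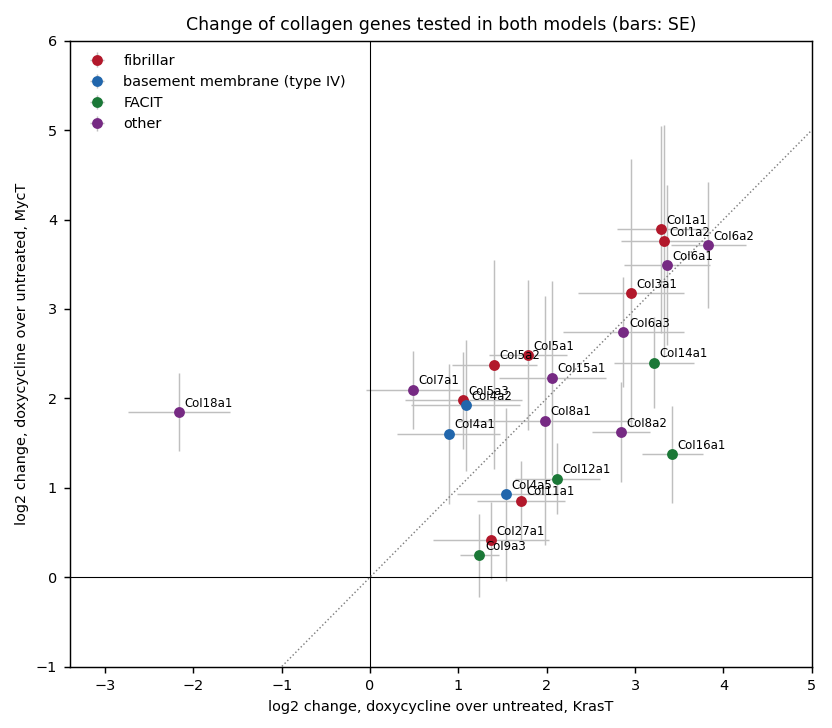
Log2 change of FPKM + 1, doxycycline over untreated, in KrasT (x axis) and MycT (y axis) for the 23 collagens tested in both, with standard errors as bars and the dotted line marking equal changes. Of the 23 genes, 22 lie above 0 on both axes, and Col18a1 sits at -2.16 in KrasT and 1.85 in MycT.

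Enzymes and chaperones that make collagen were described from the same fits, and their counts stand beside the 8.46% of all tested genes called higher and the 8.25% called lower in KrasT. In MycT 0.039% of all tested genes were called, 33.4% reached an unadjusted limma p under 0.05, and the joint fit called 8.11% higher. Which genes of these lists, or of the cell markers below, passed the filter on low values only through doxycycline libraries was not examined. Their counts may therefore include rises that the filter fixed. Of 18 tested genes of collagen synthesis and folding, 3 rose and 2 fell in KrasT, with a median log2 change of 0.38. At a mean of at least 5 FPKM, 2 of 17 rose and 2 fell. The change of Leprel1 ran from 0.87 to 3.17 over 13 other settings. The prolyl 3-hydroxylases Leprel2 and Leprel1 rose by 2.24 ± 0.36 and 1.54 ± 0.30 (SE, limma adjusted p = 0.0147 and 0.0222), and Sparc, a collagen-binding matricellular protein, rose by 2.06 ± 0.48 (limma adjusted p = 0.0325). P4hb, the protein disulfide isomerase subunit of prolyl 4-hydroxylase, was at 401, 382 and 359 FPKM with doxycycline, against 639.7, 1107 and 761 FPKM without, and Ppib, the cyclophilin of the endoplasmic reticulum, at 222, 243 and 229.7 FPKM, against 415, 437 and 410.1 FPKM. Both fell (limma adjusted p = 0.0403 and 0.0351), but neither was called under median-ratio scaling or quantile normalization. In MycT 0 of 18 were called, with a median of 0.84 and with 5 at an unadjusted limma p under 0.05, a smaller share than that of all genes. In the joint fit Fkbp10, a collagen chaperone, and Leprel2 were called higher, at log2 changes of 2.34 ± 0.59 and 1.64 ± 0.49 (limma adjusted p = 0.0262 and 0.0441).

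Of 11 tested genes of collagen processing and crosslinking, 3 rose and 0 fell in KrasT, with a median of 0.05. Loxl1, a lysyl oxidase, had 154, 45.2 and 107 FPKM with doxycycline, against 14.04, 6.74 and 9.67 FPKM without, and rose by 3.09 ± 0.49 (SE, limma adjusted p = 0.0146). Tgm2, a transglutaminase, and Adamts2, which trims the amino end of procollagen, rose by 2.02 ± 0.47 and 2.66 ± 0.65 (limma adjusted p = 0.0331 and 0.0374). In MycT 0 of 9 were called, with a median of 1.61 and with 5 at an unadjusted limma p under 0.05, and the joint fit called Pcolce, Loxl1 and Adamts2 higher (log2 changes 3.15, 2.91 and 2.59, limma adjusted p = 0.0285, 0.0289 and 0.0426).

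Among collagen receptors, 4 of 9 tested genes rose and 1 fell in KrasT, with a median of 1.49. At a mean of at least 5 FPKM, 2 of 5 rose and 1 fell. The alpha chains of collagen-binding integrins Itga11 and Itga10 rose by 1.99 ± 0.24 and 1.68 ± 0.28 (SE, limma adjusted p = 0.00799 and 0.0159), and the receptor kinase Ddr2 rose by 2.21 ± 0.41 (limma adjusted p = 0.0196). Itgb1, the beta chain that these integrins and many others share, fell to 136, 95.5 and 101 FPKM with doxycycline, against 641, 309 and 340.2 FPKM without (log2 change -1.89 ± 0.34 SE, limma adjusted p = 0.0184), a call that quantile normalization did not make. In MycT 0 of 8 were called in either fit, with 2 at an unadjusted limma p under 0.05 and a median of 0.85, and the smallest joint p values were those of Ddr2 and Mrc2, an endocytic collagen receptor (limma adjusted p = 0.0736 and 0.0874). Of 14 tested basement membrane partners, 2 rose and 0 fell in KrasT, with a median of -0.15, against -0.10 over all tested genes, and with 16.7% of all tested genes called. These were the laminin alpha chains Lama2 and Lama4, which rose by 2.43 ± 0.37 and 2.14 ± 0.42 (SE, limma adjusted p = 0.0134 and 0.0226). At a mean of at least 5 FPKM, 1 of 12 partners rose and 0 fell. In MycT 0 of 14 were called, with a median of 1.39 and with 11 at an unadjusted limma p under 0.05, and the joint fit called Pxdn, the peroxidase that crosslinks type IV collagen, and Nid1, the laminin linker nidogen, higher (log2 changes 2.34 ± 0.47 and 2.14 ± 0.62, limma adjusted p = 0.0123 and 0.0412). The KrasT calls of these 4 lists depended on single libraries too: 0 were left in any of the 4 without untreated replicate 3, and 1 in all, among the receptors, without doxycycline replicate 3, while without untreated replicate 1 there were 8, 5, 7 and 5 in the order given. In the joint fits for MycT, 0 of the 7 calls in these lists were kept without either doxycycline library or without untreated replicate 2, and 6 of 7, all but Adamts2, without the library that has no number.

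**Figure D5:**
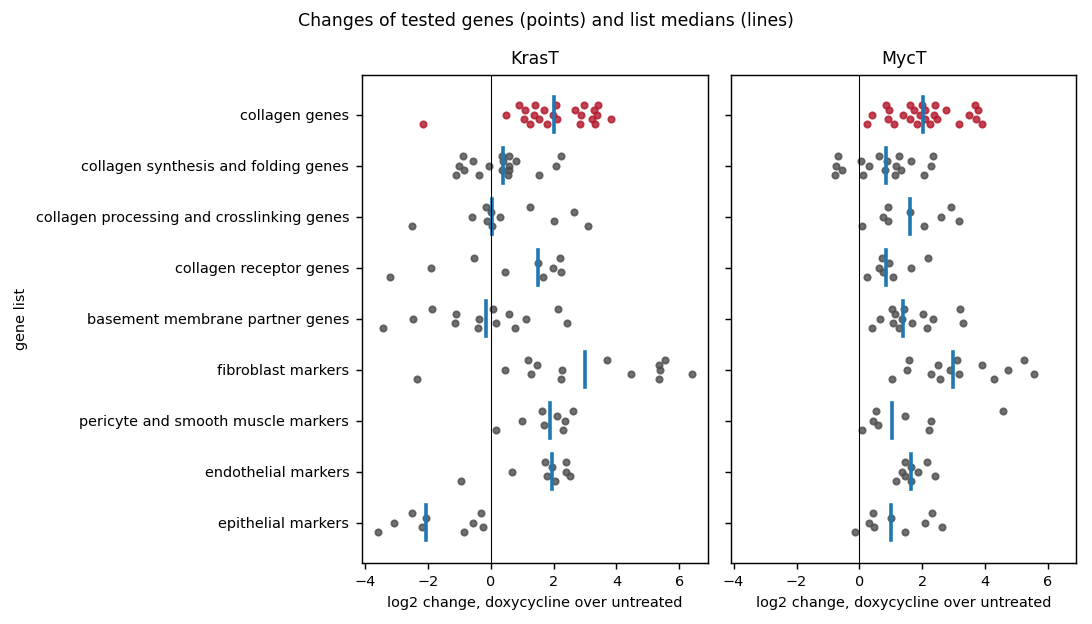
Log2 change of FPKM + 1, doxycycline over untreated, of each tested gene (points) and the median (line) for collagens, 4 lists of partner genes and 4 lists of cell type markers, in KrasT and MycT. The collagen median is 2.02 in KrasT and 2.03 in MycT, the fibroblast median is 2.99 in both, and the epithelial median is -2.05 in KrasT and 0.996 in MycT.

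Markers of fibroblasts moved with the collagens. Over 14 fibroblast markers, of which only Twist2 was listed at 0, in 1 library, the summed level was 2336 to 3697 FPKM in KrasT doxycycline libraries, against 474 to 787 FPKM in untreated ones, and 1079.6 to 1688 FPKM in MycT doxycycline libraries, against 35.6 to 187.7 FPKM in untreated ones. In KrasT 9 of 14 rose and 1, Fbln2, fell, where 8.46% of all tested genes were called higher and 8.25% lower. In MycT 0 were called and 7 were called higher in the joint fit, where 8.11% of all genes were. Dcn, the proteoglycan decorin of fibroblasts, had 1702, 1309 and 1094 FPKM with doxycycline, against 69.1, 22.7 and 20.7 FPKM without in KrasT, and 452 and 877 FPKM, against 11.99 and 42.6 FPKM in MycT.

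Other cell markers moved as well, and their KrasT counts stand beside the same 8.46% of all tested genes called higher. Over 9 endothelial markers the sum was 95.4 to 199.8 FPKM with doxycycline, against 33.1 to 58.0 FPKM without in KrasT, where 6 of 9 rose, and 77.1 to 145.9 FPKM, against 13.7 to 48.5 FPKM in MycT. Over 8 pericyte and smooth muscle markers it was 241.9 to 328.1 FPKM with doxycycline, against 43.4 to 194.5 FPKM without in KrasT, where 4 of 8 rose, and 270.3 to 278.0 FPKM, against 36.1 to 158.0 FPKM in MycT. Over 9 epithelial markers it was 284 to 1670.3 FPKM with doxycycline, against 2380.3 to 18219.7 FPKM without in KrasT, and 869 to 1755 FPKM, against 483 to 1271 FPKM in MycT. As a share of total FPKM, the epithelial sum was 0.0505% to 0.325% with doxycycline, against 0.234% to 2.06% without in KrasT, and overlapped. In MycT the share was 0.159% to 0.315%, against 0.0429% to 0.0837%, without overlap. Of these 9 markers, 2 were called lower and 0 higher in KrasT, where 8.25% of all tested genes were called lower. Each of these lists had a nonzero value for every marker in every library. In KrasT 4 of 5 tested adipocyte markers rose and 2 of 6 macrophage markers rose. Adipocyte markers summed to 3465, 433 and 214 FPKM with doxycycline, against 62.7, 13.8 and 14.0 FPKM without in KrasT. In MycT they summed to 738 and 1866 FPKM, against 129 and 108 FPKM. Skeletal muscle markers summed to 5407 FPKM in KrasT doxycycline replicate 2 and to 6520.2 FPKM in MycT doxycycline replicate 1. Untreated libraries held at most 423.6 FPKM of them in KrasT and 7.18 FPKM in MycT. Acinar markers summed to 14330.2 FPKM in KrasT doxycycline replicate 3 and to 1754.5 FPKM in MycT doxycycline replicate 2. In every other library the acinar sum was 303.6 FPKM or less. The part of these cell types in the collagen results was not tested.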

How the data were processed

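Per the labels, total RNA of frozen tumours was sequenced after Illumina TruSeq library preparation. The authors deposited 2 tables of FPKM, 1 per model. The submitters' processing notes name cutadapt, TopHat and the mm9 build. None of these sources says with which program, gene models or strand setting FPKM were computed. Columns were matched to samples by animal number, except 1 untreated MycT column whose number is in no label and which was placed by its group. Each tumour has its own number and no number pairs samples, so p-values rest on the spread between animals.

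Of 23951 rows per table, 27 with a date in place of a symbol were dropped. Genes at 1 FPKM or more in at least 3 KrasT or 2 MycT libraries were tested on log2(FPKM + 1) with limma 3.58.1 (in R 4.3.3, with a mean-variance trend, two-sided tests), with Benjamini-Hochberg adjustment over all tested genes. Per-library values are given for called collagens and the 2 most abundant per family. Of each list of partner genes, up to 3 called genes a side, or the 2 of smallest p, are named, with per-library values for some. Few genes of the cell marker lists are named, and Dcn, Krt18 and Krt8 carry per-library values. Some further genes are named to complete a family. The collagen genes, families, lists and tests were chosen with earlier results of these data known. Alternatives were a pseudocount of 0.1, no filter, a mean of at least 5 FPKM, median-ratio scaling, quantile normalization, spread without a trend, robust spread, both tables fitted jointly and fits without each library in turn. Promoter windows came from RefSeq (GRCm38.p6). Their coordinates were not used with the mm9-based values. Figures were drawn with matplotlib 3.10.9.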

Additional observations from a re-analysis of the deposited data

How the results depend on the processing

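The KrasT count of called collagens (14) ran from 10 to 14 under the 8 other settings that keep all libraries, and from 1 to 20 in fits without 1 library. The MycT count stayed at 0 except in the joint fit of both tables (9), with 0 to 11 in joint fits without 1 MycT library. The count for the difference between models was 0 in each setting with all libraries and 0 to 1 without 1 library. For all genes in KrasT the count (2121) was 1340 at a mean of at least 5 FPKM, 1078 under quantile normalization and 113 to 4223 without 1 library. For all genes in MycT (5) it was 0 with no filter, 10 with a minimum mean of 5 FPKM, 2463 in the joint fit and 0 to 0 without 1 library. For all genes in the difference (29) it was 18 with a pseudocount of 0.1, 88 with no filter, 3 at a mean of at least 5 FPKM, 17 under quantile normalization, 0 to 1522 without 1 library and 0 without the 2 libraries of Rn45s above 10000 FPKM. That last setting and the joint fits without 1 library were chosen after seeing the data. Median-ratio scaling gave 1150 higher and 702 lower genes in KrasT, against 1074 and 1047, and moved the median log2 change of all genes to 0.01 from -0.10. Of the single-gene results of collagens under other settings, 1049 stayed on their side of the threshold, 51 lost their call, 32 gained one and 0 changed direction after being called. All 51 losses fell on the 14 collagens called in KrasT. The main fits for MycT and for the difference called 0 collagens, so their results had no call to lose. The causes were not tested. No paired analysis was possible because the replicate numbers follow accession order and each tumour's label has an animal number of its own. With 2 to 3 libraries a group and unknown read depth, values near 0 FPKM are poorly resolved, and a change of 3.89 log2 units (Col1a1 in MycT, SE 1.16) was not called.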
